A study of Mus musculus with 6 samples.

Results

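The platelet-derived growth factor (PDGF) family was examined in BM MSCs of recipient mice after FMT. The family was taken by symbol as the ligand genes *Pdgfa*, *Pdgfb*, *Pdgfc* and *Pdgfd*, the receptor genes *Pdgfra* and *Pdgfrb*, and the receptor-like gene *Pdgfrl*. These are 7 of the 56980 genes in the deposited table. All 7 passed the low-count filter, which left 15190 genes for testing. The recipients were female mice that underwent ovariectomy (OVX) at 8 weeks of age, and the strain and the number of mice behind a sample are not given in the sources used here. The gut microbiota of all recipients was depleted with antibiotics before the transplantation. TranspCtrl mice were then gavaged for 8 weeks with fecal supernatant of sedentary donors, and TranspExer mice with that of donors that had exercised for 8 weeks. The paper describes the donors of both groups as osteoporotic OVX mice as well. Flushed marrow of femurs and tibias was cultured for 7 days with PBS washes and without a sorting step that the methods describe, and 3 samples of each group were sequenced. Nothing says that the samples of a group came from separate cultures, so p-values measure only the spread between these samples.

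PDGF ligands are secreted as disulfide-linked dimers of the A, B, C and D chains. They bind a pair of receptor tyrosine kinases, of which PDGFRα takes the A, B and C chains and PDGFRβ mainly the B and D chains. A and B chains are cut inside the cell by furin-like convertases, whereas C and D chains are secreted in a latent form and activated outside it by proteases such as tissue plasminogen activator and urokinase. Vessels are the textbook setting of PDGF-B, which endothelial cells release and which recruits pericytes that carry PDGFRβ. Platelets and their precursors, the megakaryocytes, store PDGF as well. In the marrow, PDGFRα is a common surface marker of mesenchymal progenitors, and PDGFRβ is found on stromal cells and on the mural cells of vessels.

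*Pdgfra* and *Pdgfd* were the members with the most reads among those that were lower in the TranspExer group, so stretches of their RefSeq promoter windows (GRCm38.p6) are shown, 5′ to 3′. Each window spans 300 bases around 1 annotated transcript start, and both genes have others. Windows were read for 4 members (*Pdgfa*, *Pdgfc*, *Pdgfd* and *Pdgfra*), and *Pdgfrb* was left out of this step. The stretch of *Pdgfra* is chr5:75152001-75152250 and that of *Pdgfd* is chr9:6168236-6168362, both on the plus strand. Neither holds an exon of GENCODE M21. The *Pdgfra* stretch ends at the start of its window's transcript and lies 679 bases inside the RefSeq gene, which begins farther upstream. Capitals mark a match on either strand to the letters TATAAA of the TATA box, CCAAT of the CCAAT box or GGGCGG of the GC box.
Pdgfra: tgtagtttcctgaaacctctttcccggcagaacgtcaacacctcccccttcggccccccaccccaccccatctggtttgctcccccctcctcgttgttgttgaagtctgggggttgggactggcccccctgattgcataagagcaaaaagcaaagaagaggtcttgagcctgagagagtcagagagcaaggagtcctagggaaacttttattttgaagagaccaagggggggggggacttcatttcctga
Pdgfd: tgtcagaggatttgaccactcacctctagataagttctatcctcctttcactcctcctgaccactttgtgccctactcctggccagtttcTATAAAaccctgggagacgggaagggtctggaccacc
The *Pdgfd* stretch held TATAAA, beginning 37 bases before the RefSeq gene start at 6168363 and 160 bases before the transcript start of the window, and the *Pdgfra* stretch held none of these letters. TATAAA was found in 13.6% of the 32851 promoter windows of the same table, CCAAT in 37.4% and GGGCGG in 35.7%. The full windows of 300 bases had a GC content of 51% for *Pdgfra* and 56.7% for *Pdgfd*. Both windows of *Pdgfa* were richer in GC, at 67% and 73.3%, and both held GGGCGG.

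Total counts were between 17647638 and 21319166 per sample, and 3 counts corresponded to at most 0.17 CPM (counts scaled to a common library size). TranspCtrl replicate 1 stood apart from its group. Its mean chi-square per gene against the other TranspCtrl samples was 59.2 and 54, whereas all other pairs within a group gave 3.79 to 7.82, and 1 is the value for counting error alone. Values without this sample are therefore given where leaving it out changed a call of a member, or moved a count or a limit by over 1.5 times. Levels below are CPM scaled by TMM factors. Differences were tested with edgeR over all 15190 genes, and a gene passed the test at a Benjamini-Hochberg adjusted p-value under 0.05. A gene that also changed at least 2-fold was counted as a DEG. The libraries held transcripts of several cell types. The 13 stromal markers were all detected and summed to between 13970 and 22908 CPM. Macrophage markers summed to between 7303 and 14162 CPM, the latter in TranspCtrl replicate 1 and at most 9376 CPM without it. *Lyz2* alone gave 9102 CPM of the sum in that replicate. Of the 11 macrophage markers 3 passed as higher in TranspExer, 2 as lower, *Lyz2* among them, and 6 did not pass. Of the 8 B and plasma cell markers 7 were downregulated DEGs, with a median log2 fold change of -1.44 and a sum of 778 to 827 CPM in TranspExer. In TranspCtrl the sum was 6086 CPM in replicate 1, 3640 in replicate 2 and 3859 in replicate 3. Their part in the levels of the members was not tested.

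Of the 7 members, *Pdgfb* and *Pdgfrb* rose in the TranspExer group, *Pdgfra*, *Pdgfd* and *Pdgfrl* fell, and *Pdgfa* and *Pdgfc* did not pass the test. Among all tested genes, 16.6% passed as higher and 15.5% as lower. *Pdgfb* was an upregulated DEG, as were 3.5% of all genes, and *Pdgfra* and *Pdgfrl* were downregulated DEGs, as were 5.28% of all genes. The samples of both groups did not overlap in CPM for 6 members, the exception being *Pdgfc*, and for 52.4% of all genes. The median log2 fold change was 0.19 over the members and -0.02 over all tested genes. The former was 0.03 with TranspCtrl replicate 1 left out and 0.31 with TranspCtrl replicate 2 left out.

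**Figure D1:**
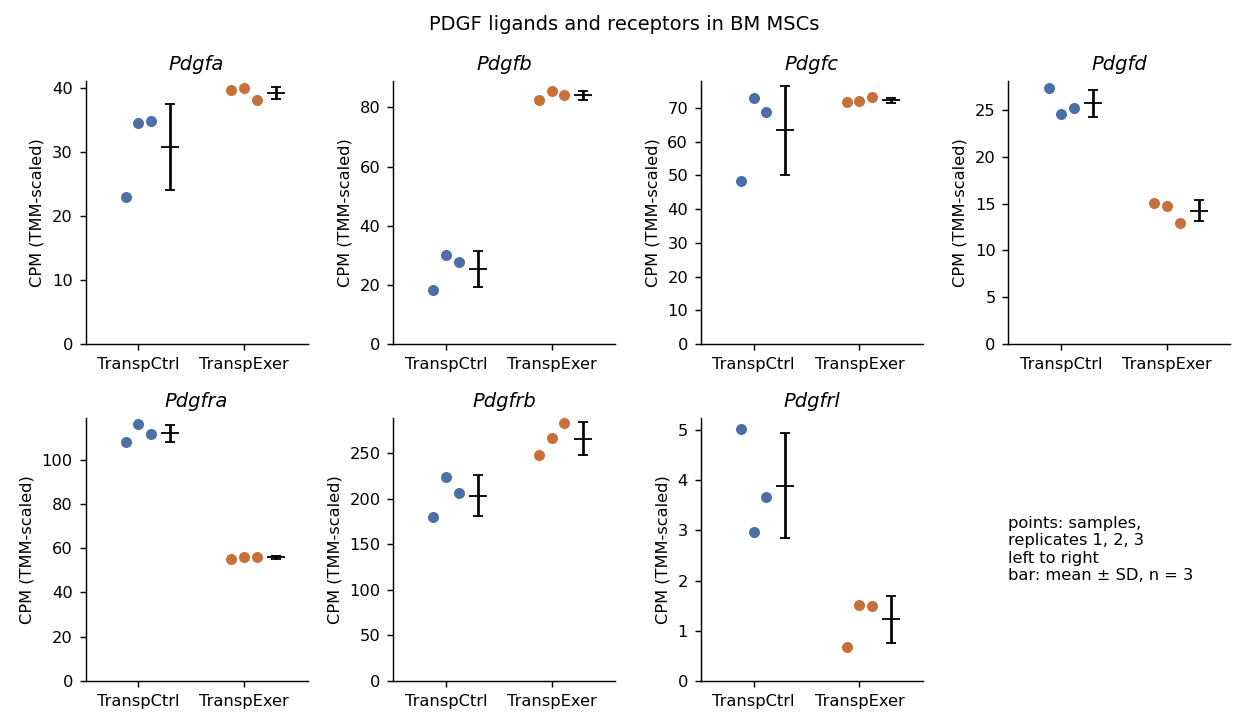
TMM-scaled CPM of each family member (vertical axes start at 0 and differ between panels) in the 3 TranspCtrl and 3 TranspExer samples, with 1 point per sample and the mean ± SD (n = 3) as a bar. *Pdgfb* lies at 82.5 to 85.4 CPM in TranspExer against at most 30.2 CPM in TranspCtrl, and *Pdgfra* at 55.1 to 56.2 against at least 108 CPM.

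Among the ligands, *Pdgfb* (ENSMUSG00000000489, chromosome 15, 79995874 to 80014977, GRCm38), which encodes the B chain, showed the greatest change. It had 18.4, 30.2 and 27.6 CPM in TranspCtrl replicates 1, 2 and 3, and 82.5, 85.4 and 84.3 CPM in TranspExer replicates 1, 2 and 3. Every TranspExer sample was above every TranspCtrl sample, and the TranspExer samples lay close together. The means were 25.4 ± 6.21 CPM (SD, n = 3) and 84.1 ± 1.48 CPM (SD, n = 3). On the log2 scale the difference was 1.73 (standard error 0.16, 95% interval 1.35 to 2.10, adjusted p = 0.000302). Leaving out TranspCtrl replicate 1, the sample with the lowest *Pdgfb*, gave a log2 fold change of 1.54. *Pdgfb* is transcribed by endothelial cells and megakaryocytes, and most markers of both were higher in the same libraries. The 12 endothelial markers all rose, 10 of them as DEGs, and their summed level was 242 to 291 CPM in TranspCtrl and 783 to 852 CPM in TranspExer. Of the 10 megakaryocyte and platelet markers 7 rose, with a summed level of all 10 of 275 to 331 CPM against 523 to 555 CPM. *Pf4*, *Gp9* and *Tubb1* did not pass. *Pf4*, the highest of these markers in TranspCtrl, had means of 151.8 CPM in TranspCtrl and 153.6 CPM in TranspExer. No marker of either list was at 0. The part of these cells in the *Pdgfb* level was not tested, and in bulk samples the number of cells of a type and the RNA per cell cannot be told apart.

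*Pdgfa* (ENSMUSG00000025856, chromosome 5, 138976014 to 138997370, GRCm38) encodes the A chain, a ligand of PDGFRα. Its level was 23, 34.6 and 34.8 CPM in TranspCtrl replicates 1 to 3, and 39.7, 39.9 and 38.1 CPM in TranspExer replicates 1 to 3. The groups did not overlap, but TranspCtrl replicate 1 was far below the other samples. The log2 fold change was 0.35 (standard error 0.15, 95% interval 0.00 to 0.70), and the adjusted p-value was 0.112. With TranspCtrl replicate 1 left out, the log2 fold change was 0.18 and the adjusted p-value 0.0425. *Pdgfa* shares 813 exon bases with *6330403L08Rik* on the opposite strand, which had 184 to 265 counts per sample. The deposited value of *Pdgfa* was not whole in any of the 6 samples, whereas its sum with that of *6330403L08Rik* was whole in 6 of 6, within 0.001 counts. Reads were thus divided between these genes of opposite strands, and the *Pdgfa* level depends on that division. The sums were 655, 897 and 1008 counts in TranspCtrl replicates 1 to 3, and 1004, 930 and 1033 counts in TranspExer replicates 1 to 3, before any scaling.

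*Pdgfc* (ENSMUSG00000028019, chromosome 3, 81036416 to 81214040, GRCm38), the gene of the C chain, had 48.4, 73 and 68.7 CPM in TranspCtrl replicates 1 to 3. In TranspExer replicates 1 to 3 it had 71.6, 72 and 73.1 CPM, all within the range reached in TranspCtrl apart from the last. The log2 fold change was 0.19 (standard error 0.14, adjusted p = 0.338), with a 95% interval of -0.14 to 0.52, so a change of up to that size was not excluded. It was 0.03 without TranspCtrl replicate 1 (adjusted p = 0.728).

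*Pdgfd* (ENSMUSG00000032006, chromosome 9, 6168584 to 6378850, GRCm38) encodes the D chain, a ligand of PDGFRβ, and moved opposite to *Pdgfb*. It had 27.3, 24.6 and 25.2 CPM in TranspCtrl replicates 1 to 3, and 15.1, 14.7 and 13 CPM in TranspExer replicates 1 to 3. The groups were well apart, and TranspCtrl replicate 1 was close to its group for this gene. The log2 fold change was -0.85 (standard error 0.10, 95% interval -1.08 to -0.62, adjusted p = 0.000737). *Pdgfd* thus passed the test and was not a DEG, since the fall was 1.81-fold.

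Set per kilobase of exon, the make-up of the ligand transcripts differed between the groups. The share of *Pdgfb* in the summed ligand level was 14.8%, 17.9% and 16.9% in TranspCtrl replicates 1 to 3. It was 38.6%, 39.4% and 39.7% in TranspExer replicates 1 to 3, which made *Pdgfb* the ligand gene with the highest level per kilobase in every TranspExer sample. The share of *Pdgfd* was 22.8% ± 5.29 (SD, n = 3) in TranspCtrl and 8.77% ± 0.632 (SD, n = 3) in TranspExer. That of *Pdgfc* was 33.8% ± 1.91 and 27.6% ± 0.553, and that of *Pdgfa* 26.8% ± 1.96 and 24.4% ± 0.395 (SD, n = 3 each). The shares are bound to sum to 100%, so the rise of *Pdgfb* lowers the shares of the others. The summed level of the 4 ligand genes itself was 30 to 40.5 CPM per kilobase in TranspCtrl and 51 to 52.1 in TranspExer.

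**Figure D2:**
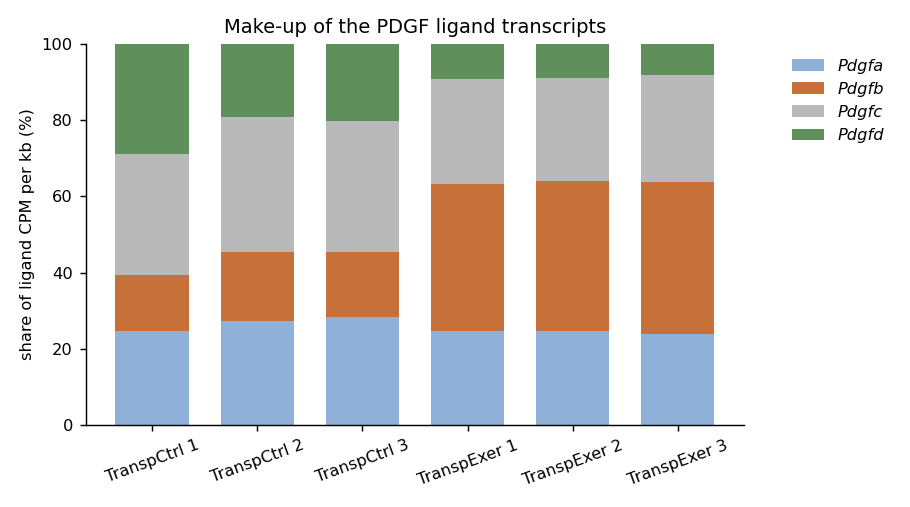
Stacked bars of the share (%) of each ligand gene in the summed ligand level, in CPM per kilobase of exon union, for the 6 samples. The *Pdgfb* part is 14.8% to 17.9% of a bar in TranspCtrl and 38.6% to 39.7% in TranspExer, and the *Pdgfd* part is 19.3% to 28.9% and 8.06% to 9.29%.

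Of the receptors, *Pdgfra* (ENSMUSG00000029231, chromosome 5, 75152292 to 75198215, GRCm38) was lower in the TranspExer group with little spread. It had 108, 116 and 112 CPM in TranspCtrl replicates 1 to 3, and 55.1, 56.2 and 56.2 CPM in TranspExer replicates 1 to 3. No TranspExer sample reached the lowest TranspCtrl sample. The log2 fold change was -1.003 (standard error 0.07, 95% interval -1.16 to -0.84, adjusted p = 7.67e-05), the smallest adjusted p-value of the family. The fall lay at the DEG threshold itself. It came out just short of that threshold with DESeq2 (-0.997 on the log2 scale), without TranspCtrl replicate 2 (-0.974) and without TranspExer replicate 1 (-0.999). The 13 stromal markers had a median log2 fold change of -0.61, with 9 lower, 1 higher and 3 not passing, and summed to 13970 to 15223 CPM in TranspExer. In TranspCtrl they summed to 14838 CPM in replicate 1, 22908 in replicate 2 and 22015 in replicate 3, so that the groups overlapped through TranspCtrl replicate 1 alone. Most of the sum came from *Col1a1* and *Col1a2*. *Col1a1* had 4563 CPM in TranspCtrl replicate 1, and 9951 and 9613 CPM in replicates 2 and 3. None of the 13 markers was at 0, and their part in the *Pdgfra* level was not tested. Genes on the opposite strand that share exon bases with *Pdgfra* had at most 4.17 counts in a sample.

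*Pdgfrb* (ENSMUSG00000024620, chromosome 18, 61045150 to 61085061, GRCm38) was the most abundant member per kilobase in every sample. It had 179, 223 and 207 CPM in TranspCtrl replicates 1 to 3, and 248, 266 and 283 CPM in TranspExer replicates 1 to 3. The groups did not overlap, though the gap between the highest TranspCtrl and the lowest TranspExer sample was small. The log2 fold change was 0.39 (standard error 0.10, 95% interval 0.15 to 0.63, adjusted p = 0.0237). This call was lost without TranspCtrl replicate 3 (adjusted p = 0.0601), TranspExer replicate 2 (0.0846) or TranspExer replicate 3 (0.0942), with log2 fold changes of 0.33 to 0.40.

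Mural cell markers, which accompany PDGFRβ in vessels, did not move as a block. Of 13 markers 11 were tested, of which 7 rose, 3 fell and 1 did not pass. Those that rose were *Cspg4*, *Rgs5*, *Kcnj8*, *Notch3*, *Abcc9*, *Mcam* and *Myh11*, by 2.82, 1.90, 1.40, 1.26, 1.21, 1.01 and 0.97 on the log2 scale. *Cnn1*, *Tagln* and *Acta2*, at -1.30, -0.98 and -0.47, were lower. *Myh11*, a contractile gene like the latter, was thus among those that rose. The median over the list was 1.01. Summed, the list was at 2555 to 3003 CPM in TranspCtrl and 1882 to 2097 CPM in TranspExer, most of it from *Acta2*. *Vtn* had at most 1 count in a sample, no marker was at 0 in all samples, and the part of mural cells in the *Pdgfrb* level was not tested.

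*Pdgfrl* (ENSMUSG00000031595, chromosome 8, 40926212 to 40990785, GRCm38) encodes a secreted protein that resembles the extracellular part of PDGF receptors and has no kinase domain. It was the member with the lowest level, with 103, 58 and 79 counts in TranspCtrl replicates 1 to 3 and 13, 26 and 30 counts in TranspExer replicates 1 to 3. These counts amounted to 2.98 to 5.03 CPM and 0.68 to 1.51 CPM, without overlap. The log2 fold change was -1.67 (standard error 0.33, adjusted p = 0.00762), and the 95% interval of -2.43 to -0.91 was the widest of the family.

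**Figure D3:**
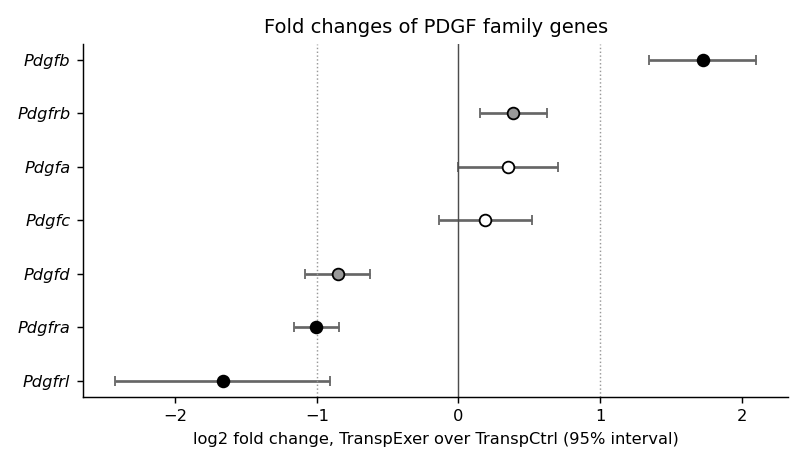
Log2 fold change of TranspExer over TranspCtrl (horizontal axis) for each family member with its 95% interval from edgeR. Black points are DEGs, grey points passed the adjusted p-value alone and white points did not pass, and dotted lines mark the fold change of 2. *Pdgfb* at 1.73 stands opposite *Pdgfra* at -1.003 and *Pdgfrl* at -1.67.

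With *Pdgfra* lower and *Pdgfrb* higher, the ratio between the receptor transcripts differed between the groups. A ratio within a library does not depend on library size or normalization. The *Pdgfrb* to *Pdgfra* count ratio was 1.66, 1.93 and 1.85 in TranspCtrl replicates 1 to 3, and 4.50, 4.74 and 5.04 in TranspExer replicates 1 to 3. The lowest TranspExer ratio was thus well above the highest TranspCtrl ratio. The means were 1.81 ± 0.138 (SD, n = 3) and 4.76 ± 0.268 (SD, n = 3), a difference of 1.39 on the log2 scale, or 2.63-fold. An exact two-sided permutation test of the log2 ratios gave p = 0.1, the smallest value that 3 samples against 3 can give, with the ratio higher in 3 of 3 TranspExer samples. With each sample left out in turn the difference lay between 1.33 and 1.44. Per kilobase of exon union the ratio was 3.32 ± 0.252 (SD, n = 3) in TranspCtrl and 8.71 ± 0.491 (SD, n = 3) in TranspExer, and *Pdgfra* made up 23.2% ± 1.39 and 10.3% ± 0.52 of the summed receptor level (SD, n = 3 each). Annotated transcripts of *Pdgfra* differ in length, and with the longest transcript in place of the union these ratios were 2.28 and 6.00.

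**Figure D4:**
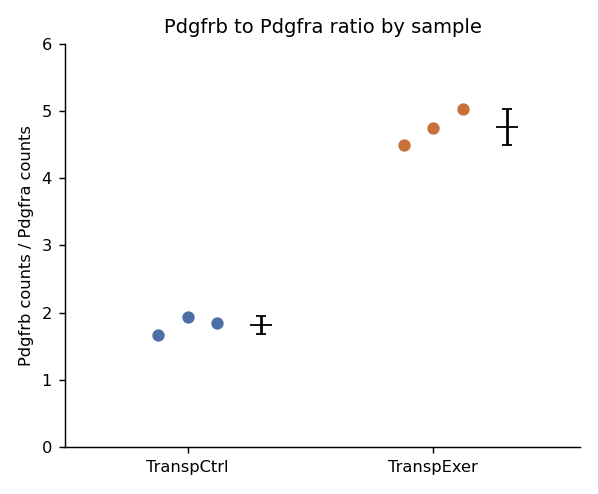
Ratio of *Pdgfrb* counts to *Pdgfra* counts in each sample (vertical axis from 0), with the mean ± SD (n = 3) of each group as a bar. The TranspCtrl samples lie between 1.66 and 1.93 and the TranspExer samples between 4.50 and 5.04.

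The order of levels per kilobase changed below the top place. *Pdgfrb* led in both groups, at 37.1 ± 4.07 and 48.5 ± 3.22 CPM per kilobase (SD, n = 3 each), and *Pdgfrl* was last, at 1.25 ± 0.334 and 0.393 ± 0.152. In TranspCtrl the next places were held by *Pdgfc* (9.51 to 14.3), *Pdgfra* (10.8 to 11.6), *Pdgfa* (7.37 to 11.2), *Pdgfd* (7.80 to 8.67) and *Pdgfb* (4.42 to 7.27). Neighbours in this run overlapped over the samples except *Pdgfd* and *Pdgfb*. In TranspExer the run was *Pdgfb* (19.8 to 20.5), *Pdgfc* (14.1 to 14.4), *Pdgfa* (12.2 to 12.8), *Pdgfra* (5.50 to 5.61) and *Pdgfd* (4.11 to 4.78), with no overlap between neighbours. Places that depended on the length used were those of *Pdgfa*, *Pdgfc* and *Pdgfra* and of *Pdgfd* and *Pdgfb* in TranspCtrl, and those of *Pdgfa* and *Pdgfc* in TranspExer.

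The rest of the pathway was followed through 77 genes in 6 lists, all of which were tested. Of these, 21 rose, 6 fell and 50 did not pass, beside 16.6% higher and 15.5% lower over all genes. The 8 DEGs, 5 higher and 3 lower, stood beside 3.5% and 5.28% over all genes, so that their number was near the share among all genes. Without TranspCtrl replicate 1, only 5 genes were DEGs, since *Nck2*, *Ier3* and *Ccl2* then fell short of the fold change of 2. Among the 7 proteases that cut PDGF chains, *Plau* rose and *Plat* and *St14* fell. *Plat* encodes tissue plasminogen activator, which activates the C chain, and fell by 0.80 on the log2 scale (adjusted p = 0.000908). *Plau* encodes urokinase, which can activate the D chain, and rose by 0.92 (adjusted p = 0.000503). *St14*, the gene of matriptase, had -1.29 (adjusted p = 0.00391). *Furin*, which cuts the A and B chains, had 0.44 (adjusted p = 0.177).

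Of 4 genes whose products bind PDGF ligands or receptors, 3 rose and 1 fell. *Cspg4*, the gene of the NG2 proteoglycan, had 1.95 ± 0.491 CPM in TranspCtrl and 13.8 ± 1.34 CPM in TranspExer (SD, n = 3 each), a rise of 2.82 on the log2 scale (adjusted p = 6.65e-05). *Nrp1* and *Lrp1*, which encode co-receptors, had 0.58 and 0.48 (adjusted p = 0.00243 and 0.0161). *Lrp1* lost its call without TranspExer replicate 2 or replicate 3 (adjusted p = 0.0646 and 0.0682). *Sparc*, whose product binds the B chain, had -0.89 (adjusted p = 0.00138).

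The 35 genes of the signalling chain from adaptors to kinases and STAT factors mostly did not pass, with 6 higher, 1 lower and 28 not passing (median log2 fold change 0.16, and 0.09 with TranspCtrl replicate 1 left out). The number that rose was near the 16.6% over all genes. The adaptor gene *Nck2* was the DEG of this list, at 1.11 (adjusted p = 0.0043). The adaptor gene *Grb2*, the kinase genes *Pik3cb*, *Mapk3* and *Akt1* and the transcription factor gene *Stat5b* rose by 0.70, 0.74, 0.43, 0.38 and 0.30 on the log2 scale. The adaptor gene *Grb10*, which dampens growth factor receptors, had -0.70 (adjusted p = 0.00541). Without TranspCtrl replicate 1, 10 genes of this list passed as higher and 2 as lower, but the calls over all genes increased as well, from 2523 to 3417 higher and from 2361 to 3041 lower. The number higher was 4 without TranspExer replicate 2 and 5 without TranspExer replicate 3. *Stat5b* lost its call in both of these fits (adjusted p = 0.0975 and 0.0963) and without TranspCtrl replicate 3 (0.0735), and *Akt1* in the first (0.062). With library size only, *Stat5b* was at 0.0548.

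Of 12 genes that restrain receptor tyrosine kinases, 6 rose and none fell, a count that was 2 without TranspExer replicate 2 or replicate 3 and 4 without TranspExer replicate 1 or TranspCtrl replicate 3. Over all genes 16.6% were higher, and their number fell as well, from 2523 to 1315 without TranspExer replicate 2 and 1327 without replicate 3. *Spry4* and *Spry2*, Sprouty genes that ERK signalling induces and that feed back on it, were DEGs at 1.65 and 1.25 on the log2 scale (adjusted p = 0.0017 and 0.00348). *Spred2*, *Cblb*, *Ptprj* and *Cbl* had 0.61, 0.67, 0.41 and 0.36, and each of these calls was lost without TranspExer replicate 2 or replicate 3 (adjusted p from 0.0618 to 0.128). The early-response genes, which serum and PDGF induce in fibroblasts, were mixed. Of 12, *Fosl1*, *Fos*, *Srf* and *Jun* rose by 0.81, 0.69, 0.53 and 0.41 on the log2 scale, and *Ccl2* and *Ier3* were lower, at -1.07 and -1.02 (adjusted p = 0.00666 and 0.0105). The call of *Ier3* was lost without TranspExer replicate 3 (adjusted p = 0.0561). The call of *Jun* was lost without TranspExer replicate 1 (adjusted p = 0.0523). *Egr1*, a classical target, had 0.06 (adjusted p = 0.735). Cultures contained serum, a source of PDGF that both groups shared.

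The receptors most closely related to those of PDGF, and their ligands, gave 1 call among 7 genes. *Kit*, the receptor gene of stem cell factor, had 15.7 ± 0.835 CPM in TranspCtrl and 52.2 ± 1.34 CPM in TranspExer (SD, n = 3 each), a rise of 1.74 on the log2 scale (adjusted p = 2.35e-05). *Kit* is expressed by blood progenitors and mast cells. Of 8 neutrophil markers 3 rose, and 5 did without TranspCtrl replicate 1. *Ly6g* passed as lower (adjusted p = 0.0375), a call that was lost with DESeq2, without the low-count filter, with the replicate block and with any 1 sample left out (adjusted p from 0.0548 to 0.119). The list summed to 3159 to 4230 CPM in TranspCtrl and 5458 to 5677 CPM in TranspExer. The granule genes *Mpo* and *Elane* rose by 2.47 and 2.16 on the log2 scale, and their part in the *Kit* level was not tested. *Csf1r* and *Kitl* had 0.07 and 0.02 (adjusted p = 0.511 and 0.913), and *Flt3* had -0.72 (adjusted p = 0.0638). *Flt3* passed as lower with upper-quartile factors (adjusted p = 0.0452) and with library size only (0.0439).

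**Figure D5:**
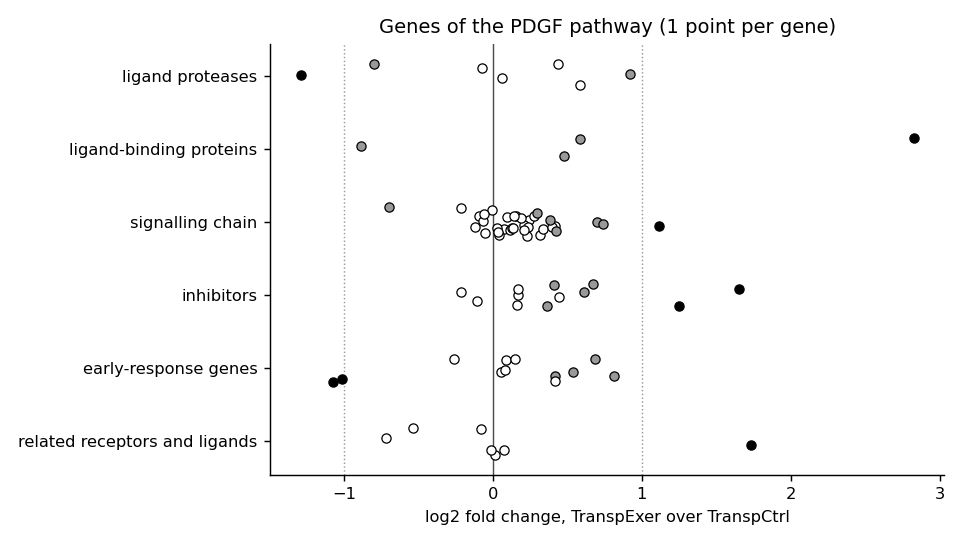
Log2 fold change of TranspExer over TranspCtrl (horizontal axis) for the 77 pathway genes, 1 point per gene, by list. Black points are DEGs, grey points passed the adjusted p-value alone and white points did not pass, and vertical scatter within a list has no meaning. *Cspg4* at 2.82 is the point farthest to the right, and most genes of the signalling chain lie near 0.

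The genes most like each member over the 6 samples were found by the root-mean-square difference of their centred log2 CPM, a description without a test. Those nearest to *Pdgfb* were *Eng*, *Smoc1* and *Heyl*, at 0.04, 0.06 and 0.07 log2 units. *Egfr*, *Txndc5* and *Mme* were nearest to *Pdgfra* (0.05 each), and *Rcn3*, *Plat* and *Gpx7* to *Pdgfd* (0.04 each). *Plat* is also a member of the protease list. *Dop1b*, *Pprc1* and *Pacs2* were nearest to *Pdgfrb* (0.01 to 0.02), *Plbd2*, *Trim27* and *Rnf11* to *Pdgfa* (0.03 each), and *Slc41a2*, *Ptk7* and *Synpo* to *Pdgfc* (0.02 to 0.03). For *Pdgfrl* the nearest genes, *Gm11518*, *Zbed6* and *Gm48271*, were at 0.23 to 0.28. The search covered genes of at least 10 CPM, above the level of *Pdgfrl* itself.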

How the data were processed

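RNA-Seq was available for 3 TranspCtrl and 3 TranspExer samples, grouped by the sample labels. The authors deposited expected counts per gene, not normalized, of which 10.1% to 12.2% per sample were not whole, with a length in bases per gene. The labels name the build mm10 and a stranded mRNA kit, the methods a TruSeq kit. The aligner and counting tool are not given in the sources used here. Counts were rounded and tested with edgeR 4.0.16 (filterByExpr, TMM, quasi-likelihood, group as the only term, R 4.3.3). Standard errors came from the F statistic. Positions and exon lengths came from GENCODE M21. Counting intervals and floors cover counting error only.

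The members and lists were chosen with earlier results of these data known. The rule for named genes took the called pathway genes (up to 6 per list) and the 3 genes nearest each member among those of at least 10 CPM (log2 CPM, prior count 2). Pathway genes passing the adjusted p-value alone and marker genes were named after their values were seen. On simulated data with 200 of 15190 genes changed by 1.5 on the log2 scale, edgeR recovered 88.5% and DESeq2 1.42.0 89%. Unchanged genes made up 3.28% and 2.2% of their calls. Far more genes passed in the real data, and *Pdgfa*, *Pdgfc*, *Pdgfd*, *Pdgfra* and *Pdgfrb* changed by less than 1.5. The simulated shares thus do not describe these members. Alternatives were other normalizations and filters, DESeq2, the replicate number as a block, other lengths and samples left out.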

Additional observations from a re-analysis of the deposited data

How the results depend on the processing

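All 7 members kept the direction of their log2 fold change in the 12 alternatives run for each. At the adjusted p-value alone 5 members and 27 pathway genes were called, against 3 and 8 with the fold change of 2. Samples left out in turn gave 2 to 3 members and 5 to 8 pathway genes. *Pdgfb* and *Pdgfrl* stayed DEGs in all 12 alternatives, *Pdgfra* in 9, and *Pdgfd* passed the adjusted p-value in 12 and *Pdgfrb* in 9. The per-kilobase *Pdgfrb* to *Pdgfra* ratio in TranspCtrl, 3.32 with the exon union, was 2.28 with the longest transcript and 2.28 with the deposited length, a choice added after the data were seen. The leave-out counts of the lists were added in the same way. Scaling by library size only, which lowered the median log2 fold change of all genes from -0.02 to -0.10, turned the medians of the protease list (0.06 to -0.03) and the macrophage markers (0.07 to -0.01), as did upper-quartile factors (-0.02 and -0.00). Leaving out TranspCtrl replicate 1 moved these medians more without turning them, to 0.16 for the proteases and 0.23 for the macrophage markers. Any other sample left out moved them less, with 0.00 to 0.08 for the proteases and 0.01 to 0.06 for the macrophage markers.

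Samples of equal replicate number showed no shared deviation, with correlations of 0.02, -0.00 and 0.04. With 3 samples per group these values cannot tell whether such samples shared a preparation. Under a block for replicate number, 3 members and 7 pathway genes were DEGs, and the log2 fold change of *Pdgfb* was 1.75. For the receptor ratio, the sign-flip test over the 3 pairs of equal numbers gave p = 0.25, its smallest exact value. *Pdgfrl*, at 13 to 103 counts, was the member most limited by depth.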
